A study of Homo sapiens with 4 samples.

Results

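The genes described here are the small noncoding RNAs that the deposited gene table classes as misc_RNA, a leftover biotype that holds 7SK, the 7SL RNAs, the Y RNAs, the vault RNAs and their many genomic copies. Members were chosen by biotype and level: all rows of that biotype with a mean normalised count of at least 1.7 over the 4 libraries, which gave 50 genes of the 51740 rows in the table. That mean was measured in these same libraries, and their difference between fractions was not used. RNA was sequenced from HEK293T cells, a human embryonic kidney line carrying the SV40 large T antigen, which were wildtype and had been crosslinked with formaldehyde before they were split into a nuclear and a cytoplasmic fraction. There were 2 libraries of each fraction from 2 biological replicates, each prepared from 400 ng of RNA with a stranded kit after ribosomal RNA depletion and read from both ends for 100 nt. Both fractions share the cell line, the crosslinking and the RNA mass, so no value gives an amount per cell. Fold changes are on the authors' size factors, under which a nuclear library held 18136040 normalised counts on average and a cytoplasmic library 28705052, and they become fold changes of a gene's share of all counts when 0.66 is taken off the log2 value. The labels name no treatment beyond the crosslinking.

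These RNAs are, for the most part, made by RNA polymerase III and are not polyadenylated. 7SK is an abundant RNA known from the nucleus, where it holds the elongation kinase P-TEFb inactive through the protein HEXIM1. 7SL is the RNA backbone of the signal recognition particle, which binds ribosomes that make secreted and membrane proteins and docks them at the endoplasmic reticulum. Y RNAs bind the Ro60 protein, and vault RNAs are named for the large vault particles of the cytoplasm. 7SK and 7SL have left many copies across the human genome, and the copies carry names such as RN7SKP255 and RN7SL4P.

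The 5' part of 7SK and of its most abundant copies is shown first, because the copies differ so little from 7SK that reads of one can resemble reads of another. The sequences were read from the hg38 assembly at the GENCODE 44 positions of each gene and run 5' to 3' over the first 100 bases. Capitals in 7SK mark GATC, which is GAUC in the RNA and is the repeat that HEXIM1 is known to bind, and capitals in the copies mark each base that differs from 7SK. The genes lie at chr6:52995620-52995950 on the plus strand (7SK), chr14:89712511-89712823 on the plus strand (RN7SKP255), chr2:76445079-76445410 on the minus strand (RN7SKP203), chr12:112267077-112267394 on the plus strand (RN7SKP71), chr5:109699500-109699834 on the minus strand (RN7SKP230) and chr4:85100496-85100823 on the plus strand (RN7SKP48).
7SK: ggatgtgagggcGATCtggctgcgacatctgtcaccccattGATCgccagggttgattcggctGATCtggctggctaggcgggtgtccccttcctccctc
RN7SKP255: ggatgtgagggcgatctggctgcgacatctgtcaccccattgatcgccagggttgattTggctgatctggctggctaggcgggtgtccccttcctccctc
RN7SKP203: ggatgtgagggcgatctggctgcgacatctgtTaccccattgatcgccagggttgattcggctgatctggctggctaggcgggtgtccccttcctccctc
RN7SKP71: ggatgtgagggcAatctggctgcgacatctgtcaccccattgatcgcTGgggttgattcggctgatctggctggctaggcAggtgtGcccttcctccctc
RN7SKP230: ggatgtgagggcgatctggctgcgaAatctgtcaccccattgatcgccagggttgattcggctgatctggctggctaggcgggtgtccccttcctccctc
RN7SKP48: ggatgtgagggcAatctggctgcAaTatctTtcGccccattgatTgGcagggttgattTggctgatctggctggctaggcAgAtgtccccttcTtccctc
7SK held GATC at 3 places in this stretch. RN7SKP255, RN7SKP203 and RN7SKP230 differed from it at 1 base each, RN7SKP71 at 5 and RN7SKP48 at 11.

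RNY1, RNY4 and the vault RNA genes are shown whole, with capitals for the run of T at the 3' end, since such a run is where RNA polymerase III is known to stop and where the La protein binds the transcript. The Y RNA genes lie at chr7:148987136-148987248 on the minus strand (RNY1) and chr7:148963315-148963410 on the plus strand (RNY4). The vault RNA genes lie at chr5:140711275-140711373 (VTRNA1-1), chr5:140718925-140719013 (VTRNA1-2) and chr5:140726158-140726246 (VTRNA1-3), all on the plus strand.
RNY1: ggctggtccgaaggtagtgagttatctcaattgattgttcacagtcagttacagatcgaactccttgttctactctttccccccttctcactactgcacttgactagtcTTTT
RNY4: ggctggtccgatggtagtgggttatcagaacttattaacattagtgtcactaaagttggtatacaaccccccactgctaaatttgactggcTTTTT
VTRNA1-1: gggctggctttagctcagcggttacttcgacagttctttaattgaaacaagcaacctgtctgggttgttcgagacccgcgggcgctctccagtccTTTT
VTRNA1-2: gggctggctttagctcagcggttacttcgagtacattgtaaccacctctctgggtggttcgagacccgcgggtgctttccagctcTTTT
VTRNA1-3: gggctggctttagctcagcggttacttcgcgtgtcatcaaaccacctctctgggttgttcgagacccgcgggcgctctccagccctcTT
The T run was 4 bases long in RNY1, VTRNA1-1 and VTRNA1-2, 5 in RNY4 and 2 in VTRNA1-3 within the annotated ends.

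Most of the well-measured genes had higher normalised counts in the cytoplasmic fraction. In the authors' deposited DESeq2 comparison of cytoplasm over nucleus, 17 of the 50 genes (34%) were higher in the cytoplasm with an adjusted p-value not above 0.01, against 25.9% of the 23333 tested genes. Just 2 were higher in the nucleus, against 26.5% of all tested genes, and 31 did not pass the threshold. On shares of all counts, with the fold changes shifted by -0.66 to equal library totals, the split was 15 cytoplasmic to 4 nuclear, since RN7SL5P and RN7SL128P no longer passed and Metazoa_SRP and RN7SL333P then did. The fold change was above 0 for 37 genes and below 0 for 13, and the median log2 fold change was 2.08, against -0.12 over all tested genes. Calls went with abundance. Of the 15 genes with a mean of at least 50, 14 were higher in the cytoplasm and 1 in the nucleus, and 31 of the 35 genes below that mean did not pass. Among all 13894 tested genes with a mean of at least 50, 40.3% were cytoplasmic and 36.8% nuclear. Cytoplasmic calls at that mean were 33 of 41 for processed pseudogenes, 5 of 5 for tRNA genes, 2 of 6 for snRNA genes and 1 of 4 for snoRNA genes. In a limma fit to the recovered counts of the 20 members with counts and a mean of at least 10, 14 were called cytoplasmic with all 4 libraries, but 0 without the deeper nuclear library and 1 without the shallower one. The 15 members of that fit that passed the DESeq2 threshold kept their direction without any 1 of the 4 libraries. Their libraries did not overlap between the fractions, so no other outcome was possible.

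Depth was set by library totals of 21567507 to 24481541 counts on genes, implied from the size factors under the assumption that both libraries of a fraction had the same normalised total. The table lists 1 mean per gene, but its 10 digits and the listed fold change allowed recovery of each library's whole counts for 47 of the 50 members. The recovery settled on 1 set of counts for 10815 of 10816 tested genes with a mean of at most 100. Which replicate number belongs to which library is not known, so libraries are called the deeper and the shallower one of their fraction. The long noncoding RNAs MALAT1 and NEAT1 were higher in the nuclear fraction, with log2 fold changes of -3.47 and -3.09. Not every RNA known from the nucleus was, since 7SK had a log2 fold change of 2.997. The tested snRNA genes had a median of 0.23.

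**Figure D1:**
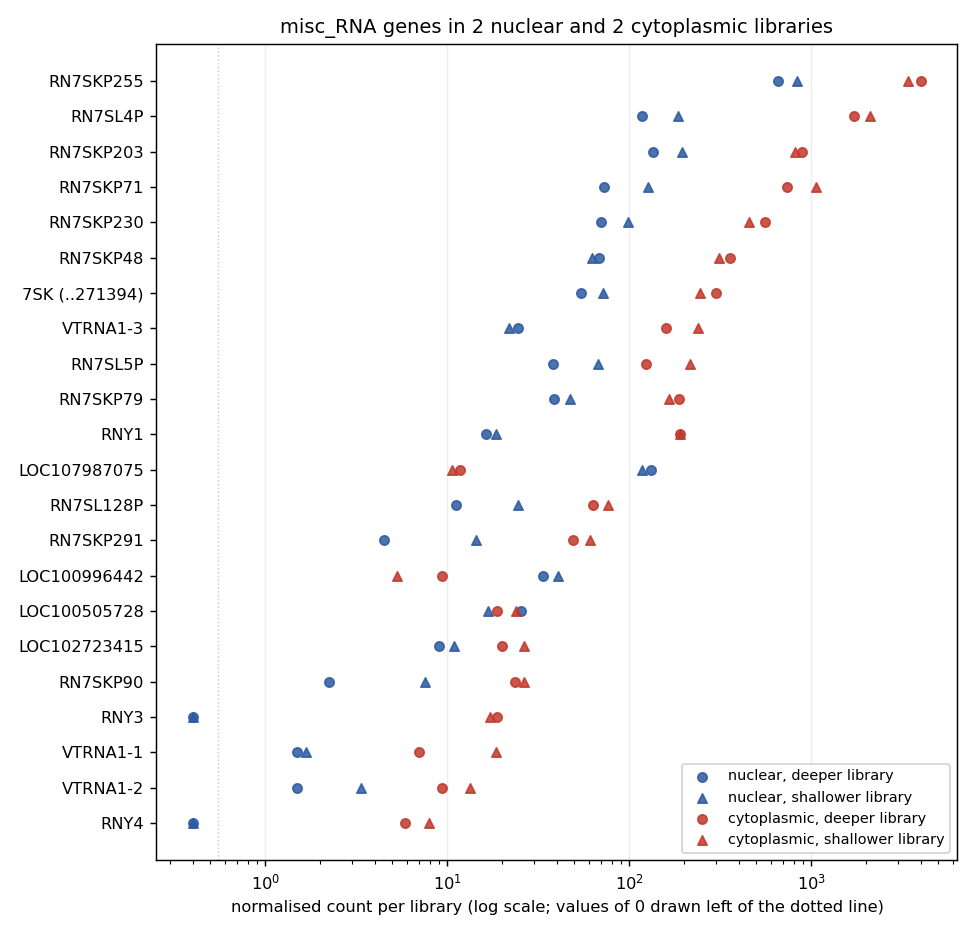
Normalised counts of 22 genes in the deeper and shallower nuclear libraries (blue) and cytoplasmic libraries (red), on a log axis, with a value of 0 drawn left of the dotted line. The cytoplasmic points lie right of the nuclear points for all genes but LOC107987075, LOC100996442 and LOC100505728.

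7SK was the most abundant member, and it was higher in the cytoplasmic fraction. Its counts were too high for recovery per library, so its level is known only as a mean per fraction, 212842 normalised counts in the nuclear libraries and 1698902 in the cytoplasmic ones. That is a 7.98-fold difference, with a log2 fold change of 2.997 ± 0.12 (SE, 2 against 2 libraries) and a DESeq2 adjusted p-value of 1.38e-144. 7SK alone made up 1.17% of all normalised counts in the nuclear fraction and 5.92% in the cytoplasmic fraction. The direction held when both fractions were scaled to equal totals, where the log2 fold change was 2.33, and when the members were left out of those totals, where it was 2.49. GENCODE 44 places a second gene record, the snRNA gene RN7SK, over the same span on the same strand, and no row of that name was analysed here. Of the 40 tested snRNA genes, 7 were higher in the cytoplasm and 4 in the nucleus, with a median log2 fold change of 0.23.

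Most copies of 7SK had the direction of 7SK, at far lower levels. Of the 11 copies, 8 passed as cytoplasmic and 0 as nuclear, and the median log2 fold change was 2.37. With DESeq2 at an unadjusted p under 0.05, 9 copies were cytoplasmic and still 0 nuclear, against 6994 and 7565 of the 23333 tested genes. The most abundant copy, RN7SKP255, had 654 and 837 normalised counts in the nuclear libraries and 4010 and 3404 in the cytoplasmic ones. Both cytoplasmic libraries lay far above both nuclear ones, and the log2 fold change was 2.32 ± 0.15 (SE) with an adjusted p-value of 5.68e-56. RN7SKP203 had 134 and 194 nuclear against 895 and 819 cytoplasmic normalised counts, a log2 fold change of 2.39 ± 0.20. RN7SKP71 had 73.1 and 126 nuclear against 740 and 1061 cytoplasmic normalised counts, and its log2 fold change of 3.18 ± 0.24 was the highest among the copies. The libraries of the fractions did not overlap for either gene.

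RN7SKP230 had 70.1 and 98.4 nuclear against 557 and 457 cytoplasmic normalised counts, with a log2 fold change of 2.60 ± 0.23. RN7SKP48 had 68.6 and 62.2 against 359 and 311, with a log2 fold change of 2.36 ± 0.25. A copy listed only as 7SK, ENSG00000271394, had 54.4 and 71.5 against 298 and 245, with a log2 fold change of 2.11 ± 0.28. The cytoplasmic libraries lay above the nuclear ones for these 3 genes. RN7SKP79 had 38.8 and 47.1 against 186 and 166 normalised counts, and RN7SKP291, the least abundant copy to pass, had 4.47 and 14.3 against 49.2 and 61.0. For the 8 copies that passed, the adjusted p-values ran up to 1.01e-04, and the fractions did not overlap in any of them. The 3 copies that did not pass were RN7SKP90, RN7SKP114 and RN7SKP160, with means of 14.9, 2.92 and 2.81 and adjusted p-values of 0.0122, 0.251 and 0.253.

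The ratio of a copy to 7SK took different values in the fractions. RN7SKP255 stood at 0.3502% of the 7SK mean in the nuclear fraction and at 0.218% in the cytoplasmic one, so that its log2 fold change minus that of 7SK was -0.68. The same difference was -0.61 for RN7SKP203, -0.64 for RN7SKP48, -0.88 for ENSG00000271394 and -0.96 for RN7SKP79, but 0.18 for RN7SKP71. Whether these differences depart from 0 was not tested.

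The copies had 80.5% to 98.3% identity to 7SK over their aligned parts, with a median of 93.7%. In 8 of the 10 copies whose match began at base 1 or 2 of 7SK, the local alignment ended between bases 229 and 243 of the 331, so the 3' end of 7SK was not matched there. The exception at the 5' side was ENSG00000271394, which matched bases 142 to 330. A read inside a stretch that occurs elsewhere cannot be placed by its own sequence, though its mate may place it. Of the 100-nt windows of 7SK itself, 51.3% were found again elsewhere in hg38, and of those of RN7SKP255, RN7SKP203 and RN7SKP71 the shares were 1.87%, 18.9% and 21.0%. The other 8 copies had no 100-nt window in common with another place, RN7SKP230 and RN7SKP48 among them. How the authors treated reads that fit several places is not given in the sources used here, and reads that carry a sequencing error or a variant base were not examined.

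**Figure D2:**
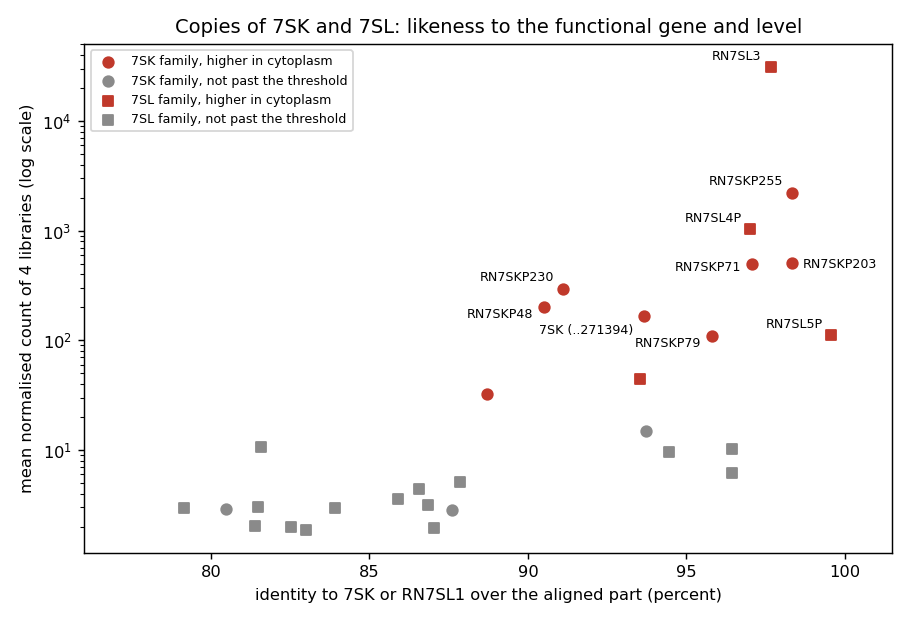
Percent identity to 7SK or RN7SL1 over the aligned part against the mean normalised count of the 4 libraries on a log axis, for the copies of 7SK (circles), the copies of 7SL and RN7SL3 (squares). Red marks genes higher in the cytoplasmic fraction. The genes that passed lie at 88.7% identity or more, and genes of 93.7% to 96.4% identity with means of 15 or less did not pass.

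The 7SL RNAs showed the largest differences among the abundant members. RN7SL1, a functional 7SL gene, averaged 59007 normalised counts in the nuclear and 1485690 in the cytoplasmic libraries, a 25.2-fold difference. Its log2 fold change was 4.65 ± 0.37 (SE, 2 against 2 libraries) with a DESeq2 adjusted p-value of 8.87e-35, and at equal library totals it was 3.99. RN7SL1 took 0.325% of the nuclear and 5.18% of the cytoplasmic normalised counts.

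RN7SL3, a further functional 7SL gene, averaged 2375 nuclear and 59762 cytoplasmic normalised counts. Its log2 fold change of 4.65 ± 0.30, with an adjusted p-value of 1.16e-51, equalled that of RN7SL1 to 2 decimals. The pair share most of their sequence, and 74.5% of the 100-nt windows of RN7SL1 and 12% of those of RN7SL3 were found elsewhere in hg38. RN7SL2 was not analysed here. Together, 7SK, RN7SL1 and RN7SL3 held 1.51% of the normalised counts in the nuclear fraction and 11.3% in the cytoplasmic fraction, and the other 47 members held 0.0102% and 0.0335%.

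Of the 18 copies of 7SL, 3 (16.7%) passed as cytoplasmic and 0 as nuclear, against 25.9% and 26.5% of all tested genes. At equal library totals the counts were 1 and 2. With DESeq2 at an unadjusted p under 0.05 they were 5 and 4, against 6994 and 7565 of the 23333 tested genes. RN7SL4P, the most abundant copy of 7SL, had 118 and 186 normalised counts in the nuclear and 1720 and 2107 in the cytoplasmic libraries. The fractions did not overlap, and its log2 fold change was 3.66 ± 0.19 (SE) with an adjusted p-value of 4.98e-81. RN7SL5P had 38.0 and 67.3 against 123 and 216 normalised counts, a log2 fold change of 1.69 ± 0.37. RN7SL128P had 11.2 and 24.4 against 63.3 and 76.9, a log2 fold change of 1.99 ± 0.52. Both had the shallower library on top in each fraction, and neither passed at equal totals, with adjusted p-values of 0.0107 and 0.0182.

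The remaining 15 copies of 7SL, all with a mean under 40, did not pass in either direction, and 7 had a fold change above and 8 below 0. RN7SL333P, RN7SL525P and Metazoa_SRP are described as examples chosen after their values were seen. RN7SL333P had 7.46 and 10.1 normalised counts in the nuclear libraries and 0 in both cytoplasmic ones, at least 4.66-fold lower in the cytoplasm when the latter is set to 3 counts over its 2 libraries, with an adjusted p-value of 0.0154. RN7SL525P was the reverse, with 0 in both nuclear libraries and 4.69 and 7.95 in the cytoplasmic ones, at least 5.25-fold higher, with an adjusted p-value of 0.0237. Metazoa_SRP, a row named after the signal recognition particle RNA family, had 23.9 and 13.5 nuclear against 1.17 and 3.98 cytoplasmic normalised counts, a log2 fold change of -2.89 ± 1.13 with an adjusted p-value of 0.0199. The fractions did not overlap for these genes, but counts this low left wide errors. The copies of 7SL that passed had 93.5% to 99.6% identity to RN7SL1 and the others 79.2% to 96.4%, and 16 of the 18 had no 100-nt window elsewhere. The exceptions were RN7SL4P and RN7SL5P, with 47.4% and 49.5% of their windows found elsewhere.

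**Figure D3:**
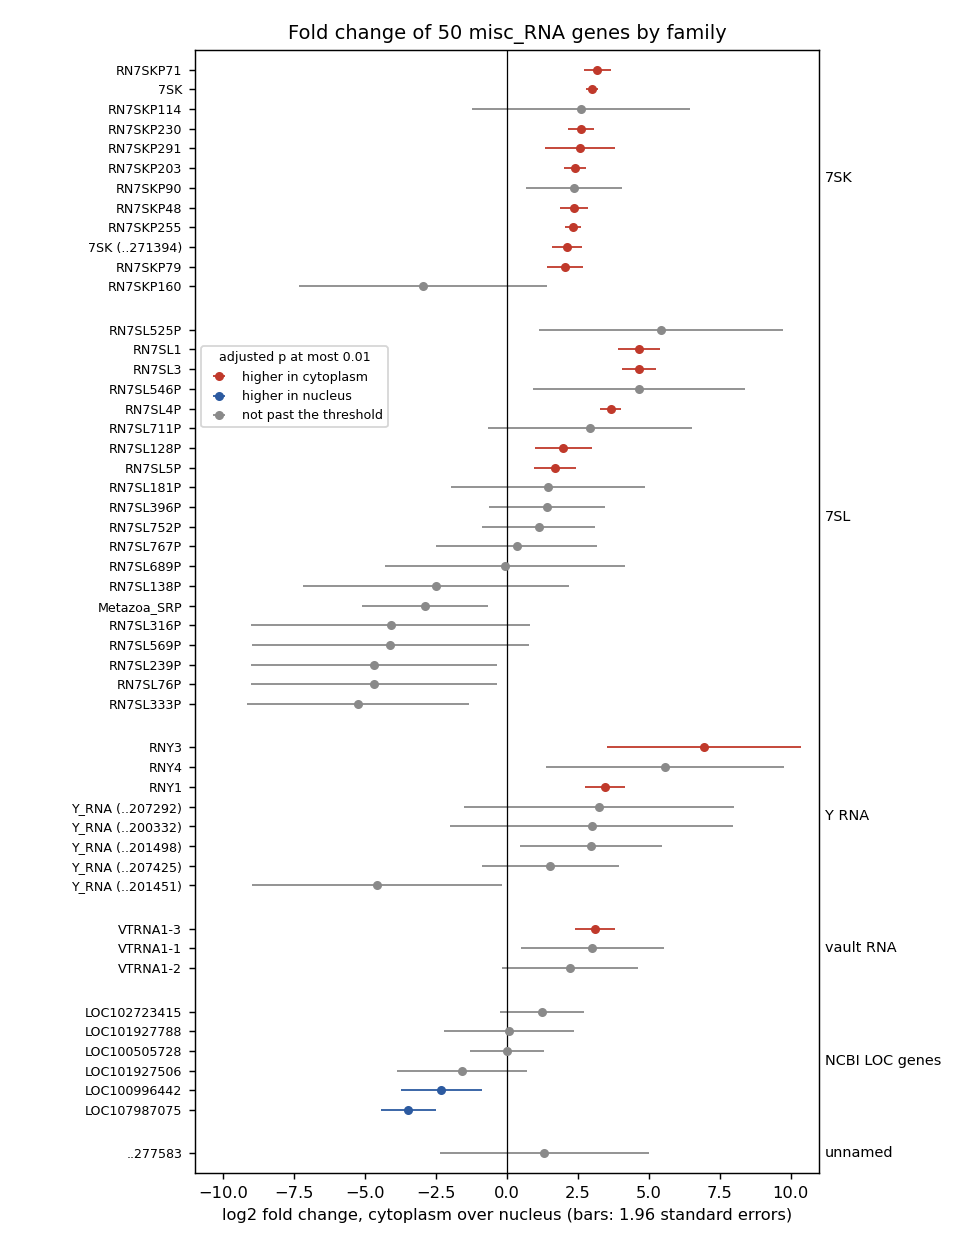
Log2 fold change of cytoplasm over nucleus for the 50 genes by family, with bars of 1.96 standard errors on each side. Red and blue mark adjusted p-values of at most 0.01. The bars of the 7SK family members that passed and of RN7SL1, RN7SL3 and RN7SL4P are short and right of 0, and the rarer copies of 7SL spread to both sides with bars of several log2 units.

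Of the 8 Y RNA members, 2 (25%) passed as cytoplasmic and 0 as nuclear, against 25.9% and 26.5% of all tested genes. Both were among the 3 named Y RNA genes, which were higher in both cytoplasmic libraries than in both nuclear ones. RNY1, which encodes the Y1 RNA, had 16.4 and 18.5 normalised counts in the nuclear libraries and 190 and 191 in the cytoplasmic ones, with no overlap. The log2 fold change was 3.45 ± 0.36 (SE) and the DESeq2 adjusted p-value 1.36e-20. RNY3, the Y3 gene, had 0 counts in both nuclear libraries and 18.8 and 17.2 normalised counts in the cytoplasmic ones, so it was at least 15.2-fold higher there against a floor of 3 counts over the nuclear libraries, with an adjusted p-value of 1.50e-04. RNY4, the Y4 gene, also had 0 in both nuclear libraries, against 5.86 and 7.95, at least 5.77-fold higher, with an adjusted p-value of 0.0168 that missed the threshold. All windows of 50 nt in RNY3 and 66.0% of those in RNY4 were found elsewhere in hg38. On the 100-nt windows used for 7SK and 7SL, 0 of the 3 in RNY3 were found elsewhere. RNY4, at 96 nt, is too short to hold one. The 5 rows named Y_RNA had means of 1.73 to 7.10, and none passed. By value 4 of them were higher in the cytoplasm and 1 in the nucleus. RNY5 was not analysed here.

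The vault RNAs were also higher in the cytoplasmic libraries by value. VTRNA1-3 had 24.6 and 21.9 normalised counts in the nuclear libraries and 159 and 239 in the cytoplasmic ones. The fractions did not overlap, and the log2 fold change was 3.09 ± 0.36 (SE) with an adjusted p-value of 3.71e-17. VTRNA1-1 had 1.49 and 1.68 nuclear against 7.04 and 18.6 cytoplasmic normalised counts, with an adjusted p-value of 0.0345. VTRNA1-2 had 1.49 and 3.36 against 9.38 and 13.3, with an adjusted p-value of 0.105. The cytoplasmic libraries lay above the nuclear ones for both, yet neither passed at these counts. GENCODE 44 places a long noncoding RNA, ENSG00000292256, over all 3 genes on their own strand. VTRNA2-1, the vault RNA of another locus, had a mean of 0.21 and was not tested.

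The 6 members added from the NCBI annotation, named by LOC numbers, held both of the nuclear calls and 0 cytoplasmic ones, and their median log2 fold change was -0.79. With DESeq2 at an unadjusted p under 0.05 the counts were also 2 and 0, against 7565 nuclear and 6994 cytoplasmic of the 23333 tested genes. LOC107987075 had 131 and 118 normalised counts in the nuclear libraries and 11.7 and 10.6 in the cytoplasmic ones, a log2 fold change of -3.48 ± 0.49 (SE) with a DESeq2 adjusted p-value of 4.32e-12. LOC100996442 had 33.6 and 40.4 nuclear against 9.38 and 5.30 cytoplasmic normalised counts, a log2 fold change of -2.32 ± 0.73 with an adjusted p-value of 0.00313. The fractions did not overlap for either. RefSeq on GRCh38.p14 lists the latter as WASH9P, a transcribed pseudogene, and lists LOC101927506 and LOC101927788 as long noncoding RNA genes, so these rows are misc_RNA by the label of the table only. The other 4 did not pass, with log2 fold changes from -1.59 to 1.22. LOC100505728 had the libraries of the fractions interleaved, with 25.4 and 16.8 nuclear against 18.8 and 23.9 cytoplasmic normalised counts. One further member, ENSG00000277583, carries no symbol and lies inside the gene ST7 on the same strand, and it did not pass.

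Whether the libraries of the fractions overlapped gave a count that uses no p-value, though the recovered counts rest on the authors' own mean and fold change. Among the 36 members with a mean of at most 100, 18 (50%) had both cytoplasmic libraries above both nuclear ones, against 29.4% of the 10815 tested genes in that range. For 12 (33.3%) both nuclear libraries were above both cytoplasmic ones, against 47.9% of those genes. The remaining 6 overlapped. All 16 called members with recovered counts showed no overlap, and so did 25 of the 31 that were not called. By the shares of 29.4% and 47.9% above, most tested genes with a mean of at most 100 showed no overlap either. Lack of overlap was therefore common and does not by itself set the members apart. Its share among the called genes of the whole table was not counted. Of the members with a mean of at most 100, 3 had 0 counts in both nuclear and 6 in both cytoplasmic libraries.

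Levels are set beside each other here per length, which does not correct for sequence found elsewhere in hg38. That held for 51.3% of the 100-nt windows of 7SK, 74.5% of those of RN7SL1 and 12% of those of RN7SL3. VTRNA1-3 and RNY1, at 89 and 113 nt, are near the read length of 100 nt. How far either changed the order was not tested. Per 100 nt of gene, 7SK averaged 64303 normalised counts in the nuclear fraction against 513264 in the cytoplasmic one, and RN7SL1 19735 against 496886. In both fractions the order of the levels ran 7SK, RN7SL1, RN7SL3, RN7SKP255 and RN7SL4P. RN7SKP203 and RN7SKP71 followed, with 49.5 and 31.3 in the nucleus but 258 and 283 in the cytoplasm, where their order changed. VTRNA1-3 came next in both, at 26.1 and 224, and RNY1 stood at 15.4 and 168. The cytoplasmic libraries of RN7SKP203 lie within the range of those of RN7SKP71 before division by length, so these neighbours do not differ beyond their spread in the cytoplasm. No spread per library is known for 7SK and RN7SL1, so their order in the cytoplasm cannot be tested.

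Many members lay inside other genes. Of the 44 members with GENCODE 44 coordinates, 26 had another annotated gene over their span, 5 of them on the same strand, and 18 had none. A tested gene lay on the opposite strand of 20 members. Of these opposite genes 11 were higher in the nucleus and 4 in the cytoplasm, with a median log2 fold change of -1.23, against 26.5% nuclear and 25.9% cytoplasmic of all tested genes. For the 8 members that were themselves higher in the cytoplasm, 7 of the 8 opposite genes had a fold change below 0, as had 52.4% of all tested genes. RN7SL4P lies against ANKRD28, which had a log2 fold change of -1.33, RN7SKP71 against HECTD4, with -1.14, and RN7SKP230 against MAN2A1, with -1.71. The exception was RN7SL1, which lies against the ribosomal protein gene RPS29, with a log2 fold change of 3.18. The strand setting of the counting is not given in the sources used here. How far reads of the opposite gene entered the counts of these 20 members was not tested.

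**Figure D4:**
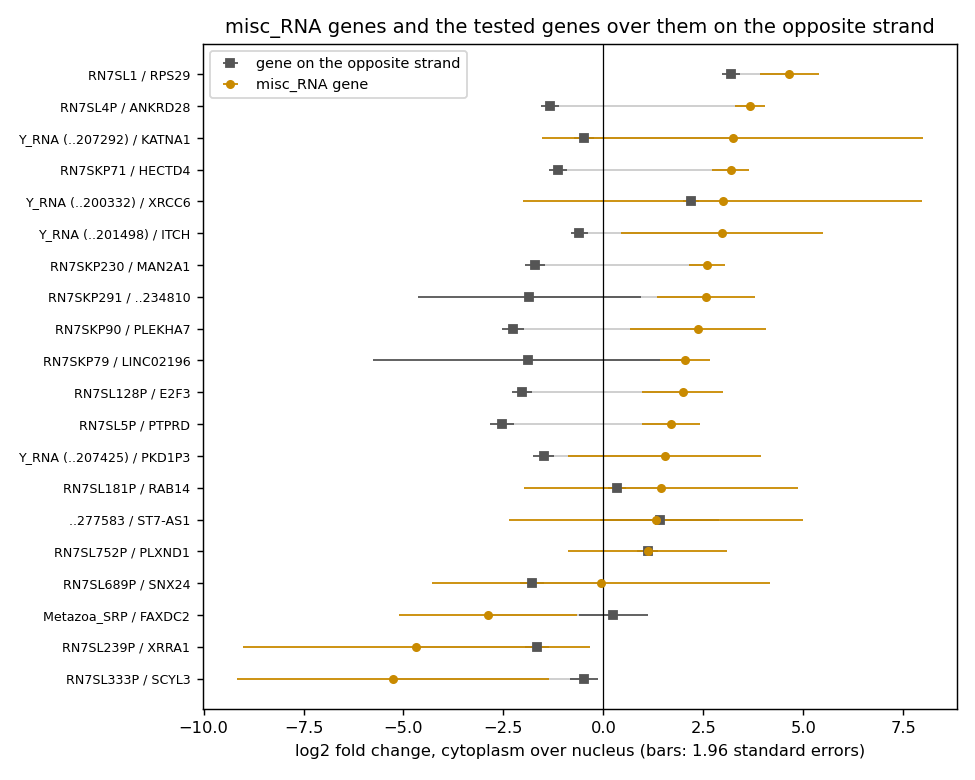
Log2 fold change of cytoplasm over nucleus for 20 members (ochre circles) and for the tested gene that overlaps each on the opposite strand (grey squares), with bars of 1.96 standard errors. The circles lie right of 0 for 16 of the 20 members, and the squares lie left of 0 for 14. Beside the 8 members that passed as higher in the cytoplasm, 7 squares lie left of 0, with RPS29 beside RN7SL1 as the exception.

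Sequence signals of polymerase III genes were uneven among the members. The letters TATA stood 15 to 40 bases upstream of the start, on the gene's own strand, in 9 of the 44 members with coordinates (20.5%), against 10.1% of the misc_RNA genes and 6.62% of the protein-coding and 14.6% of the snRNA genes of GENCODE 44. They were present at 7SK, RNY3, RNY4, VTRNA1-1 and VTRNA1-2, and at no 7SK copy. The rest were copies of 7SL that did not pass, such as RN7SL333P, RN7SL76P and RN7SL689P. The letters TTTT stood within 10 bases of the annotated end in 13 of the 44 (29.5%), against 11.9% of misc_RNA, 16.1% of protein-coding and 47.9% of snRNA genes. Among the 17 members higher in the cytoplasm, 2 (11.8%) had the upstream TATA and 7 (41.2%) had the terminal TTTT. Among the 27 members with coordinates that were not called, the counts were 7 (25.9%) and 6 (22.2%). A match of such short letters is a description of the window and no measure of transcription.

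The mRNAs of proteins that bind these RNAs were looked up as well, in 5 lists with 31 genes in all, of which 22 passed as cytoplasmic, 3 as nuclear and 6 as neither. Of the 12138 protein-coding genes with a mean of at least 50, 43.6% were cytoplasmic and 33.0% nuclear. At equal library totals the split was 15 to 6. Of the 7 genes of the 7SK particle, 5 were cytoplasmic, with MEPCE, which caps 7SK, at a log2 fold change of 2.11 ± 0.13 (SE) and HEXIM1 at 1.61 ± 0.23. CCNT2, a cyclin of P-TEFb, was nuclear at -1.24 ± 0.13, and LARP7, which binds the 3' end of 7SK, was at -0.00 ± 0.46. Of the 8 genes of the signal recognition particle and its receptor 6 were cytoplasmic, led by SRP14 at 3.01 ± 0.14. SRP54, which binds the signal peptide, was at -0.28 ± 0.14 and SRP19 at -0.01 ± 0.16, and neither passed.

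RO60, which binds Y RNAs, was cytoplasmic at 1.19 ± 0.12, and SSB, the La protein, was at 0.33 ± 0.39 and did not pass. Of the 11 genes of RNase MRP and P, 10 were cytoplasmic, led by POP7 at 3.30 ± 0.17, and RPP38 did not pass. All 3 vault protein genes were below 0, with PARP4 at -0.85 ± 0.12 and TEP1 at -0.67 ± 0.15 higher in the nucleus and MVP, the main shell protein, at -0.59 ± 0.27 and not past the threshold. The vault RNAs and the vault protein mRNAs had fold changes of opposite sign in these fractions. At equal totals SRP19, SRP54 and MVP passed as nuclear, and HEXIM2, CDK9, CCNT1, SRP9, SRP68, POP1 and RPP30 no longer passed as cytoplasmic.

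**Figure D5:**
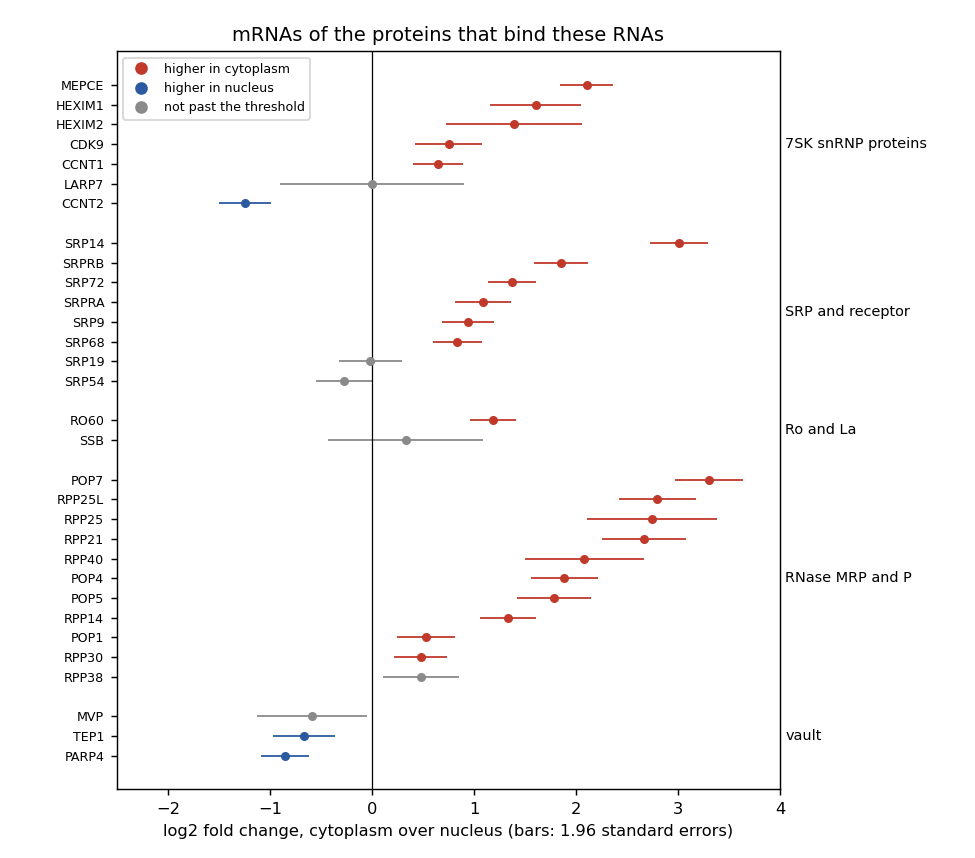
Log2 fold change of cytoplasm over nucleus for 31 mRNAs of proteins that bind 7SK, 7SL, Y RNAs, the RNase MRP and P RNAs and vault RNAs, with bars of 1.96 standard errors. Red and blue mark adjusted p-values of at most 0.01. The vault genes lie left of 0, and all 11 genes of RNase MRP and P lie right of it.

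Other short RNAs of the table give the setting for these values. RMRP, the RNA of RNase MRP, averaged 37047 normalised counts in the nuclear and 88585 in the cytoplasmic libraries, a log2 fold change of 1.26 ± 0.29 (SE) with an adjusted p-value of 2.85e-05. BCYRN1, a cytoplasmic RNA derived from an Alu element and thus in part from 7SL, had a log2 fold change of 4.35 ± 0.18, less than 1 standard error of RN7SL1 away from it. RPPH1, the RNA of RNase P, was not analysed here. Of 126 tested tRNA genes 36 were higher in the cytoplasm and 0 in the nucleus, and the median log2 fold change was 3.26. With DESeq2 at an unadjusted p under 0.05 those counts were 70 and 0, against 6994 and 7565 of the 23333 tested genes. Of 5800 tested lncRNA genes 341 were cytoplasmic and 1423 nuclear, with a median of -1.04. The median of the 50 members, 2.08, lay between those of the tRNA and snRNA genes.

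The rule's threshold fell among genes with very few counts. The members just inside it were RN7SL316P, RN7SL689P and the Y_RNA row ENSG00000200332, with means of 1.96, 1.87 and 1.73. Just outside were RN7SL664P with 1.68 and Y_RNA rows with 1.58 and 1.54. Of 1304 misc_RNA rows, 1077 had a mean of 0 and 177 lay above 0 but under the threshold, 1 of which was tested.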

How the data were processed

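RNA of 2 nuclear and 2 cytoplasmic libraries was compared. The authors aligned the reads to hg38 with STAR and counted them with featureCounts 2.0.2 over exons and introns on a custom annotation. That annotation was based on GENCODE with added NCBI genes, and stretches shared by several genes and readthrough transcripts had been removed. The strand setting and the treatment of reads with several matches are not given in the sources used here. The deposited table holds the authors' DESeq2 comparison: a mean normalised count per gene, which is a signal averaged by the authors over all libraries, a log2 fold change of cytoplasm over nucleus with its standard error, both on the log2 scale as deposited, and the Wald p-value with its Benjamini-Hochberg adjusted p-value as deposited. These columns of the authors' own comparison were used here because the table holds no value per library, and the edgeR test intended for counts was replaced by them. Genes with an adjusted p-value were taken as tested, and calls were made at 0.01.

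Members and gene lists were chosen with earlier results of these data known. Genes were named by rule: all members with a mean of at least 50, the functional genes, up to 5 further calls in each direction and the listed protein genes. Other members are named where a small count is broken down or as marked examples.

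Fraction means were computed from the mean and the fold change. Counts per library were recovered as the whole numbers that, divided by the size factors and averaged, give the listed mean to 10 significant digits. Size factors were 1.34 and 1.19 for the nuclear and 0.853 and 0.755 for the cytoplasmic libraries, and 3493 low means served to fit them. Except at low means, the listed fold change limited the search. Where several sets of counts gave the mean, the fold change was used to choose among them. Such sets numbered 9909 for RN7SKP255, 218 for RN7SL4P and 20 for RN7SKP203. For all 9365 recovered genes with fitted means over 0.5 counts in all libraries, the counts gave the listed fold change within 0.0001. Where the fold change made the choice, that is no separate check. Because the recovery starts from the authors' own values, it is no independent measurement. Bounds use a floor of 3 counts over the libraries of a fraction and cover counting error only. PCR copies were not separable, so counts may exceed molecules.

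Sequences and positions came from GENCODE 44 on hg38, and 44 members matched by identifier. The sequences of some members are not reported here. Identity was taken from a local alignment (match 2, mismatch -3, gap open -5, gap extension -2; Biopython 1.88). Alternatives were other scalings, adjustments, thresholds and minimum means, and limma 3.58.1 in R 4.3.3 on log2 of the recovered normalised count plus 0.5. The limma fit, the scaling that leaves out the members and the leave-one-out fits were added after seeing the data. The recovery and the limma fit were tested on simulated data. Other software was Python 3.11.15, numpy 2.4.6, pandas 2.3.3 and scipy 1.17.1.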

Additional observations from a re-analysis of the deposited data

How the results depend on the processing

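No paired analysis was possible because the table carries no replicate numbers. Limma over all tested genes was not run, since counts could not be recovered for all of them. Of 77 values recomputed under 15 settings, 54 stayed near the main value and 23 moved. Counts of copies and lists were compared over both directions together, so a change of direction within such a count was scored as near. At equal totals the calls among the copies of 7SL changed from 3 cytoplasmic to 1 cytoplasmic and 2 nuclear. RN7SL5P and RN7SL128P no longer passed, with log2 fold changes of 1.03 and 1.32. The 2 nuclear calls, Metazoa_SRP and RN7SL333P, were copies that had not passed before. The calls of the protein genes changed from 22 and 3 to 15 and 6. Scaling to equal totals shifted every log2 fold change by -0.66, leaving the members out of the totals by -0.51, and centring on the protein-coding median by -0.11.

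The 17 cytoplasmic calls were 15, 17 and 17 under those scalings. The 2 nuclear calls became 4 at equal totals, 4 with the members left out of the totals, 4 at an adjusted p of at most 0.05, 1 with Bonferroni adjustment, 1 among members with a mean of at least 50, and 6 with limma without a filter (10826 genes, 47 members). Limma over 5182 genes with a mean of at least 10 called 14 cytoplasmic and 3 nuclear of 20 members. Leaving out 1 library in that fit gave 0 to 16 cytoplasmic and 0 to 3 nuclear calls: 0 and 0 without the deeper nuclear library, 1 and 0 without the shallower nuclear one, 16 and 3 without the deeper cytoplasmic one, 14 and 3 without the shallower cytoplasmic one. The lone library was assumed to vary like the other fraction. At an unadjusted p under 0.05, 13 were still cytoplasmic without either nuclear library.

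The 3 called copies of 7SL became 1 with Bonferroni adjustment and 7 at 0.05. The 2 called Y RNA genes became 1 with Bonferroni adjustment, 4 at 0.05, and 1 among members with a mean of at least 10 or of at least 50. The 2 LOC calls became 1 with Bonferroni adjustment and 1 at a mean of at least 50. The median log2 fold change of 2.08 became 1.41 at equal totals, 1.96 centred on the protein-coding median, 2.36 and 2.60 at minimum means of 10 and 50, and 1.84 with the 17 genes at or under 3 counts in a fraction set to their bound. Counts limit what the rarer copies can show: 8 members had 1 to 3 counts in a fraction and 9 had 0.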
